A study of Mus musculus with 30 samples.

Results

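The 10 genes described here were listed as genes of dentate gyrus granule cells: Prox1, Glis3, Dsp, Dock10, Pdzd2, Tdo2, Calb1, Trpc6, Stxbp6 and C1ql2. They are 10 of the 49315 genes in the count table, and all 10 were among the 16486 genes with enough counts to be tested. The list was chosen by cell type, with the difference between TIMP2 KO and WT mice and the covariation of these genes across mice already in view, so for both the values, and counts past a threshold on p, are given as descriptions that support nothing about the list. The comparison of males with females was not part of the choice and was tested, although a difference between the sexes also adds to covariation across mice.

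Poly(A)-selected RNA from dissected hippocampi of 30 mice of strain C57BL/6J was sequenced, 1 library per mouse. The 13 TIMP2 KO mice, 6 males and 7 females, carried a constitutive loss of Timp2, not restricted to a cell type, and the 17 WT mice, 10 males and 7 females, were the controls. According to the methods the WT controls were littermates. The methods give ages of a few months for the mice in general, without saying which applied to the sequenced mice. Treatment beyond genotype and the harvest date of each mouse were not given in the sources used here, so a harvest batch and a group cannot be told apart. Totals lay between 18345517 and 41081083 counts per TIMP2 KO mouse and between 19445246 and 32098386 per WT mouse. Levels are given as CPM, a gene's counts divided by the library's total, after TMM normalization (trimmed mean of M values), and scaled to a common total. The 13 TIMP2 KO mice had 130 to 171 CPM of Timp2 and the 17 WT mice 256 to 380, so the genotype labels separated without overlap, although reads on Timp2 remained in TIMP2 KO mice.

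Granule cells are the principal neurons of the dentate gyrus, the entry station of the hippocampal circuit. They receive input from the entorhinal cortex and send mossy fibre axons to hilar mossy cells and to CA3 pyramidal neurons, and they are among the few neurons that continue to be born in adult rodents. Prox1 is a homeobox transcription factor that specifies and maintains granule cell identity, Calb1 encodes the calcium buffer calbindin of mature granule cells, and C1ql2 encodes a secreted protein of mossy fibre synapses. Because the whole hippocampus was homogenized, fewer granule cells in a sample and less RNA per granule cell cannot be told apart. Reads on these genes from other cell types of the hippocampus cannot be separated either.

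The stretches around the transcription starts are printed for the 5 genes with an unadjusted p under 0.05 in TIMP2 KO against WT, and for Trpc6 and C1ql2, which were added after their values were seen because they passed the test between the sexes. Each window is read 5′ to 3′ on the gene's strand, from 250 bases before to 50 bases after the first start that RefSeq lists in GRCm38.p6. Capitals mark exact matches, on either strand, to CAGATG (an E-box of the NeuroD type), CAGCTG (another E-box), TGACGTCA (the cyclic AMP response element), TATAAA (the TATA box) and GGGCGG (the GC box).
Prox1: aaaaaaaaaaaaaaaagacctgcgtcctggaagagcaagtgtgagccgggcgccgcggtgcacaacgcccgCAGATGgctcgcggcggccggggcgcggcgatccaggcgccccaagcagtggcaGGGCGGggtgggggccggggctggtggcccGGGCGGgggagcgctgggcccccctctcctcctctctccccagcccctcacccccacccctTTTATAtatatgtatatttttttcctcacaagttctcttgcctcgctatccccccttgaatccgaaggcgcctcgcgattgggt
Dock10: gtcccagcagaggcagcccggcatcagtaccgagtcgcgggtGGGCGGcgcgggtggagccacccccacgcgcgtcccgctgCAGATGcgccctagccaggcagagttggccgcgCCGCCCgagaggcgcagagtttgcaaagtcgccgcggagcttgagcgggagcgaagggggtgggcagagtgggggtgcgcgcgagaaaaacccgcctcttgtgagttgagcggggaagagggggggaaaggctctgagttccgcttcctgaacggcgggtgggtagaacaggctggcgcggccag
Dsp: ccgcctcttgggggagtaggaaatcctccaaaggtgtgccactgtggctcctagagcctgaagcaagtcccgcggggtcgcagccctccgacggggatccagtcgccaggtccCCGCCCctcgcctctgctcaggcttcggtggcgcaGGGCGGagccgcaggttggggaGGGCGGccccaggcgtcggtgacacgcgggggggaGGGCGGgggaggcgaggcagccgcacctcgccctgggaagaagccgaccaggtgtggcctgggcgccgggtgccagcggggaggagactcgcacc
Tdo2: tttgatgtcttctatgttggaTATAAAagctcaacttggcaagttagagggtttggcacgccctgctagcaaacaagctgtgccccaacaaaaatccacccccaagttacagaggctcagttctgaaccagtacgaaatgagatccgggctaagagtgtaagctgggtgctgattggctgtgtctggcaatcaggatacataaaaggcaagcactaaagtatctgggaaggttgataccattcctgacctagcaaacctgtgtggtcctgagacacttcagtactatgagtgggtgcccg
Stxbp6: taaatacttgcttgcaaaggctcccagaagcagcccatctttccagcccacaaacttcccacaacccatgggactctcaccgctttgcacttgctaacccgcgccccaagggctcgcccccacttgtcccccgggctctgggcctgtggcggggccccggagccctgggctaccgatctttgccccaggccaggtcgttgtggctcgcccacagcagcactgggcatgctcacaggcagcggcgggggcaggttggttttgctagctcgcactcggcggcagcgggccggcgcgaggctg
C1ql2: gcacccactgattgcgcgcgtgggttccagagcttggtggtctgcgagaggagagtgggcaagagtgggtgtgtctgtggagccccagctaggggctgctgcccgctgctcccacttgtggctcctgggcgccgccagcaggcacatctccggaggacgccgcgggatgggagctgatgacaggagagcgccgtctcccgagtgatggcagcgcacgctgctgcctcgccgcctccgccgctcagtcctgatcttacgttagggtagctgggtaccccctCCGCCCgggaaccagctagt
Trpc6: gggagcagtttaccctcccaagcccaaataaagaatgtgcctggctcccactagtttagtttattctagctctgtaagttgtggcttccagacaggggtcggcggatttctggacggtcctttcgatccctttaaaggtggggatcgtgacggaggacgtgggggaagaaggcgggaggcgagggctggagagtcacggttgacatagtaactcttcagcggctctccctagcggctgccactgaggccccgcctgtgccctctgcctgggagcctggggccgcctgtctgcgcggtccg

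These windows lie at chr1:190170778-190171077 (minus strand, Prox1), chr1:80758504-80758803 (minus, Dock10), chr13:38151044-38151343 (plus, Dsp), chr3:81975679-81975978 (minus, Tdo2), chr12:45074434-45074733 (minus, Stxbp6), chr1:120340332-120340631 (plus, C1ql2) and chr9:8543892-8544191 (plus, Trpc6). RefSeq windows were matched for 9 of the 10 genes, and Calb1 was not among them. CAGATG occurred in 2 of these 9 windows, 179 bases before the start of Prox1 and 168 bases before that of Dock10, and in 17.2% of the first windows of 27025 genes. GGGCGG occurred in 6 of the 9 windows and in 35.9% of all first windows, with 4 matches each in Dsp and Pdzd2. TATAAA was found in 2 of the 9, Prox1 and Tdo2, against 14.2% of all genes. The match in Prox1 lay 34 bases before the start but on the strand opposite to the gene, printed as TTTATA. The match in Tdo2 lay on the gene's strand, 229 bases before the start. CAGCTG was found in 1 of the 9, that of Glis3, against 16.1%, and TGACGTCA in 0 of the 9, against 1.9%. No match overlapped another, and each match describes letters only.

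All 10 genes are protein-coding. As RPKM, that is CPM divided by exon length in kilobases, which allows levels of different genes to be compared, C1ql2 was the highest at 65.8 ± 9.14 RPKM (SD, n = 30), and its lowest mouse, at 48.4, lay above the highest of any other member. Calb1 at 33.1 ± 3.32 RPKM and Stxbp6, at 24.1 to 39.3 RPKM, overlapped, and Prox1 at 15.9 ± 2.02 lay below both in every mouse. Trpc6 (5.08 ± 0.829), Dock10 (5.04 ± 0.696) and Dsp (4.89 ± 1.04) were within their spread of each other on the RPKM scale, as were Tdo2 (2.63 ± 0.404) and Pdzd2 (2.53 ± 0.435). Glis3 was the lowest at 1.47 ± 0.174 RPKM. Every member had at least 159 counts in every mouse, so the spread between mice rather than counting error set the precision. The biological coefficient of variation, the spread between mice beyond counting error, was lowest for Calb1 at 9.41% and highest for Dsp at 18.8%, against 7.52% for a typical gene.

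Dentate granule cell genes tended to sit lower in TIMP2 KO hippocampi, by 0.118 on the log2 scale at the median, and the groups overlapped for each of the 10 genes. The log2 fold change was below 0 for 10 of 10 genes in edgeR's quasi-likelihood fit with both sexes pooled, and 5 of them, Prox1, Dsp, Tdo2, Dock10 and Stxbp6, had an unadjusted p under 0.05. The members vary together across mice, so these are not 10 separate observations. Of all 16486 genes, 49.82% had a log2 fold change below 0, and 2.56% were lower in TIMP2 KO at an unadjusted p under 0.05. After Benjamini-Hochberg adjustment over all genes tested 0 of the 10 had an adjusted p under 0.05, in edgeR as in DESeq2, against 0.0546% of all genes in edgeR. These shares are printed for reference, since this difference was in view when the genes were listed.

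Of the 2 transcription factors, Prox1 showed the larger difference. Prox1 (chr1:190118035-190170714, minus strand) ranged from 103 to 140 CPM in TIMP2 KO mice, with a median of 125, and from 115 to 184 in WT mice, with a median of 141. All 13 TIMP2 KO mice lay below the WT median, and 9 of the 17 WT mice lay above every TIMP2 KO mouse. The log2 fold change of Prox1 was -0.16, with a standard error (SE) of 0.05. Glis3 (chr19:28258851-28680077, minus strand), a zinc finger transcription factor, ranged from 11.4 to 16.6 CPM in TIMP2 KO mice and from 9.79 to 15.4 in WT mice. The TIMP2 KO mice lay inside the WT range except at its top, and the log2 fold change of Glis3 was -0.01 (SE 0.06). An antisense gene, Prox1os, shares 133 exon bases with Prox1 and had 80 to 262 counts per mouse against at least 2425 for Prox1.

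Among the genes of cell contacts and the cytoskeleton, Dsp encodes desmoplakin, which ties desmosomes to intermediate filaments and is a common marker of granule cells. In TIMP2 KO mice Dsp (chr13:38151294-38198577, plus strand) ranged from 24.2 to 62.7 CPM with a median of 42.8, and in WT mice from 35.6 to 68.3 with a median of 49.3. The 2 lowest mice were TIMP2 KO mice below every WT mouse, and the log2 fold change of Dsp was -0.21 (SE 0.10). Dock10 (chr1:80501073-80758527, minus strand), a guanine nucleotide exchange factor, ranged from 63.6 to 98.0 CPM in TIMP2 KO mice, median 89.3, and from 78.0 to 124 in WT mice, median 94.7. Of the 17 WT mice, 6 lay above all TIMP2 KO mice for Dock10, and its log2 fold change was -0.14 (SE 0.06). Pdzd2 (chr15:12359711-12739924, minus strand), a protein with several PDZ domains, lay between 36.7 and 56.1 CPM in TIMP2 KO mice and between 32.5 and 63.3 in WT mice. The TIMP2 KO range of Pdzd2 thus fell within that of WT mice, and its log2 fold change was -0.06 (SE 0.08). Dsp shares 499 exon bases with an antisense gene, Gm10129, which had 2 to 17 counts per mouse.

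Among the enzyme and calcium genes Tdo2 differed most. Tdo2 (chr3:81957090-81976202, minus strand) encodes tryptophan dioxygenase, which opens the kynurenine pathway of tryptophan breakdown. It ranged from 6.65 to 11.1 CPM in TIMP2 KO mice, median 9.48, and from 8.76 to 14.7 in WT mice, median 10.5. For Tdo2, 12 of 13 TIMP2 KO mice lay below the WT median and 5 WT mice above every TIMP2 KO mouse, with a log2 fold change of -0.22 (SE 0.07). Calb1 (chr4:15881264-15908064, plus strand) ranged from 116 to 187 CPM in TIMP2 KO and from 141 to 183 in WT mice. The 3 lowest mice were TIMP2 KO, but so was the highest, and the log2 fold change of Calb1 was -0.08 (SE 0.05). Trpc6 (chr9:8544142-8680741, plus strand), a cation channel opened by diacylglycerol, had 21.0 to 32.9 CPM in TIMP2 KO and 20.4 to 35.7 in WT mice. The TIMP2 KO mice lay within the WT range of Trpc6, and the log2 fold change was -0.10 (SE 0.08).

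Of the genes of the presynaptic side, Stxbp6 (chr12:44852484-45074709, minus strand) encodes amisyn, a syntaxin-binding protein of vesicle exocytosis. It ranged from 128 to 172 CPM in TIMP2 KO mice, median 149, and from 137 to 208 in WT mice, median 159. In 5 WT mice Stxbp6 was above every TIMP2 KO mouse, and its log2 fold change was -0.13 (SE 0.05). C1ql2 (chr1:120340582-120343174, plus strand) ranged from 112 to 149 CPM in TIMP2 KO mice and from 96.9 to 178 in WT mice. The lowest as well as the highest mouse for C1ql2 was WT, and the log2 fold change was -0.11 (SE 0.06).

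**Figure D1:**
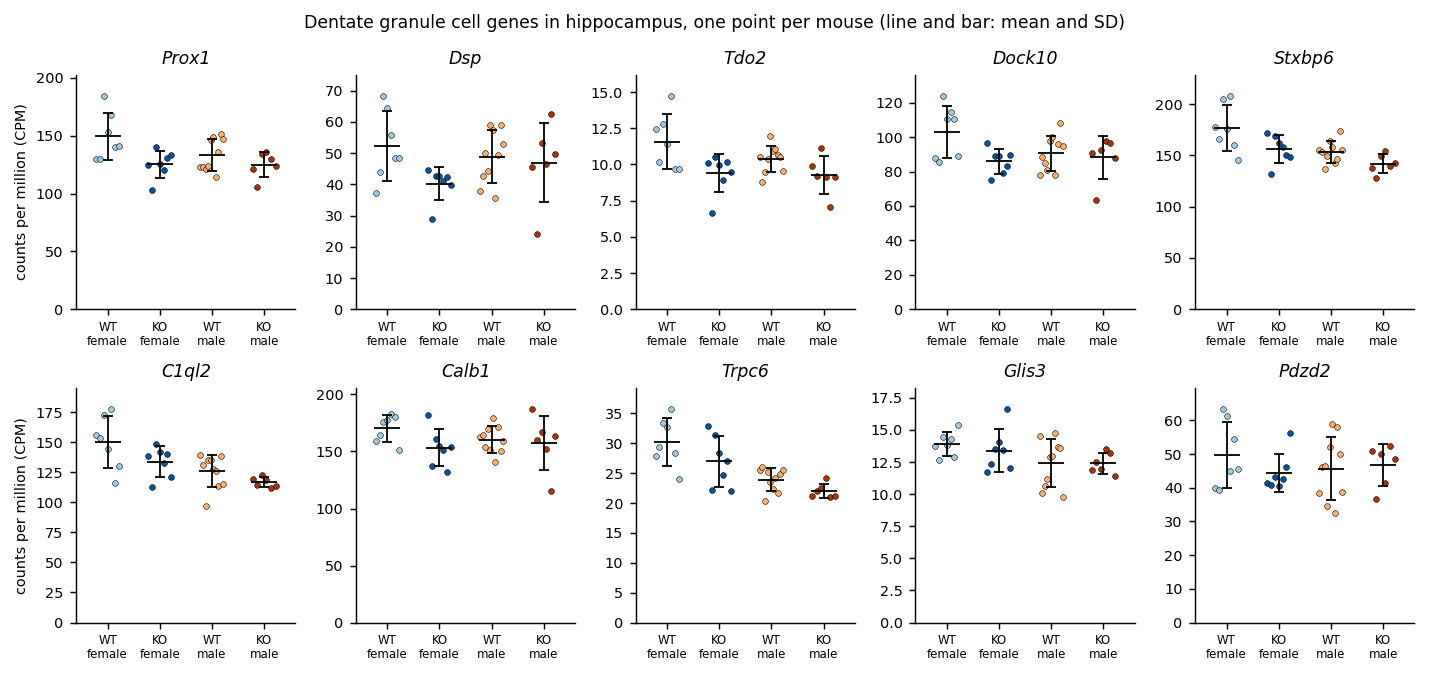
CPM (vertical axis from 0) of each of the 10 genes in every mouse, 1 point per mouse, in WT females (n = 7), TIMP2 KO females (n = 7), WT males (n = 10) and TIMP2 KO males (n = 6). Horizontal lines and bars give the group mean and SD, and TIMP2 KO and WT mice of the same sex overlap in every panel.

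In females the differences were wider, at a median of -0.178 on the log2 scale, against -0.076 in males. With females alone, 7 of 10 genes had an unadjusted p under 0.05, where 2.69% of all genes were lower by that rule, and the log2 fold change was -0.38 for Dsp (SE 0.11), -0.30 for Tdo2 (0.10), -0.26 for Dock10 (0.08) and -0.26 for Prox1 (0.07). With males alone 3 genes did (Tdo2, Stxbp6 and Trpc6), where 1.64% of all genes were lower. In males Dsp had a log2 fold change of -0.06 (SE 0.14), and Glis3 and Pdzd2 were at 0.00 (0.08) and 0.03 (0.11). These counts come from fits that call different shares of all genes, and the difference between the sexes was fitted as the interaction of sex and genotype. Its estimate, the male minus the female log2 fold change, was above 0 for 10 of 10 genes. Of all genes tested, 49.48% had an estimate below 0, and the members vary together, so these are not 10 separate observations. The estimate was largest for Dsp at 0.32 (SE 0.20) and Dock10 at 0.22 (0.12), and smallest for Trpc6 at 0.05 (0.11). None of the 10 had an unadjusted p under 0.05 for the interaction, in edgeR or in DESeq2, while 2.57% of all genes did and 0.0% passed the adjusted threshold in edgeR. Without TIMP2 KO male mouse 10, the interaction had an unadjusted p under 0.05 for Dsp (0.46, SE 0.17) and Dock10 (0.30, SE 0.11), both with an adjusted p of 0.999 in edgeR. In that fit 595 of 16531 genes had an unadjusted p under 0.05. No other mouse was left out of the interaction fit.

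**Figure D2:**
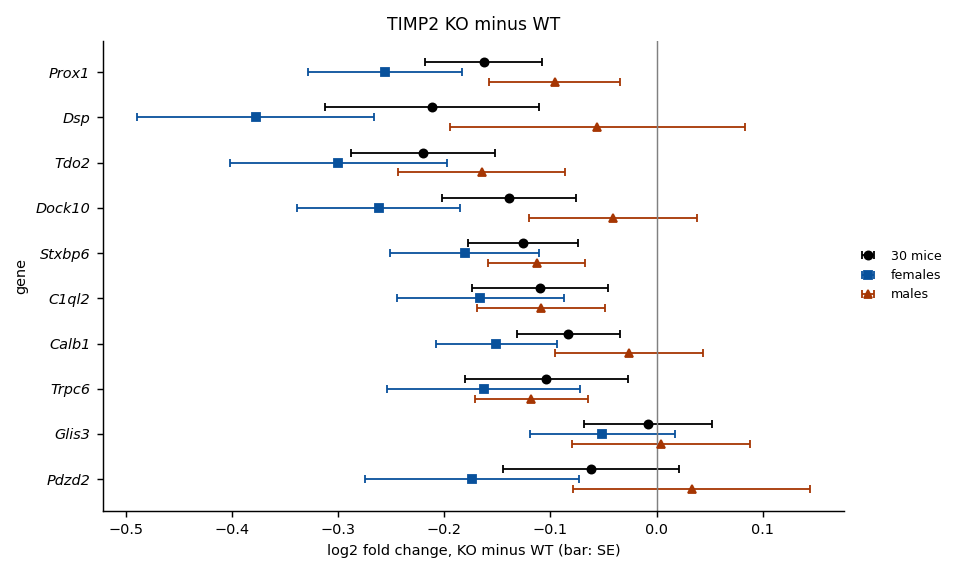
Log2 fold change of each gene, TIMP2 KO minus WT (horizontal axis), with all 30 mice (circles), females alone (squares) and males alone (triangles), from edgeR, with bars of 1 standard error. All 10 pooled values lie below 0, and in males Dsp, Dock10, Calb1, Glis3 and Pdzd2 lie within 1 standard error of 0.

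The number of members with an unadjusted p under 0.05 in the pooled comparison depended on which mice were in the fit, as did the number over all genes. The mean log2 CPM of the 10 genes was lowest in TIMP2 KO female mouse 5 (5.49) and TIMP2 KO male mouse 10 (5.50), and highest in the WT females mouse 16 (6.17), mouse 21 (6.11) and mouse 19 (6.05), while the other 25 mice lay between 5.65 and 5.91. Leaving out mouse 5, 10, 16, 19 or 21, or TIMP2 KO female mouse 25 or WT male mouse 31, left 3 of 10 genes with an unadjusted p under 0.05, and the lowest and highest counts over all 30 omissions were 3 and 6. Over all genes, 422 were lower by that rule with all mice, and between 333 and 492 over the 30 omissions. Without mouse 5, 10, 16, 19, 21, 25 or 31 the number was 371, 372, 333, 403, 356, 394 and 378. Prox1, Tdo2 and Stxbp6 kept an unadjusted p under 0.05 in 30 of 30 omissions, Dock10 in 22 and Dsp in 16. With sex and 8 surrogate variables as covariates, 2 genes, Prox1 and Dsp, had an unadjusted p under 0.05, and the median log2 fold change was -0.045. Over all genes, 544 of 16486 were lower in that fit by the same rule.

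Measured against other neurons of the same samples, the pooled difference kept its size while the spread between mice was wider. The mean log2 CPM of the 10 genes was 5.73 ± 0.11 (SD, n = 13) in TIMP2 KO and 5.85 ± 0.15 (SD, n = 17) in WT mice, a difference of -0.119. Relative to 7 CA1 pyramidal genes the difference was -0.120, and relative to 7 CA3 pyramidal genes, added after the data were seen, it was -0.152. The SD was 0.21 in TIMP2 KO and 0.22 in WT mice relative to CA1, and 0.18 and 0.24 relative to CA3. Relative to CA1 the difference was -0.243 in females and -0.049 in males, against -0.203 and -0.07 unscaled. The median log2 fold change of the CA1 list was -0.006 and that of the CA3 list 0.029, with 0 of 7 and 1 of 7 genes (Dkk3, higher) at an unadjusted p under 0.05, against 2.47% of all genes higher by that rule. Of 12 other granule cell and mossy fibre genes, 1 (C1ql3, a relative of C1ql2) was lower in TIMP2 KO by the same rule. Of all genes 2.56% were lower, and the median of these 12 genes was -0.062. Of the choroid plexus genes tested 3 of 3 (Ttr, Clic6 and Prlr) were higher in TIMP2 KO at an unadjusted p under 0.05, as were 9 of 10 immediate early genes. Ttr alone of these passed after adjustment in edgeR. The summed choroid plexus level was 6.39 to 677 CPM in TIMP2 KO (median 9.67) and 3.19 to 44.1 in WT mice (median 8.83). Of the TIMP2 KO mice, only 1, 5, 11 and 20, at 95.6, 136, 677 and 74.3 CPM, lay above every WT mouse. The summed immediate early level was 271 to 776 CPM in TIMP2 KO (median 459) and 231 to 685 in WT mice (median 314). The part of both lists in the difference of the granule cell genes was not tested. The mean of the 10 genes was 5.80 in mouse 11, with 677 CPM of choroid plexus genes, and 5.49, the lowest of all, in mouse 5, with 136 CPM, the next highest. Over 30 mice its Pearson correlation with the mean of the choroid plexus genes was -0.37, and -0.17 after group means were removed.

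Trpc6 and C1ql2 differed between the sexes, in the comparison that had no part in the choice of the genes. Both were lower in males, Trpc6 at 23.2 ± 1.88 CPM (SD, n = 16) against 28.6 ± 4.31 (SD, n = 14) in females, and C1ql2 at 122 ± 11.8 against 142 ± 19.2. All 16 males lay below the female median for each of them. In the fit with genotype as a covariate, 2 of the 10 genes had an adjusted p under 0.05, both lower in males, against 0.218% of all genes in either direction and 0.133% lower in males.

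For Trpc6, males ranged from 20.4 to 26.1 CPM with a median of 22.9, and females from 22.0 to 35.7 with a median of 28.4. Of the 14 females, 10 lay above every male, and the 4 others were TIMP2 KO mice 5, 25 and 30 and WT mouse 28. By group, Trpc6 averaged 30.2 ± 3.95 CPM (SD, n = 7) in WT females, 27.0 ± 4.28 (SD, n = 7) in TIMP2 KO females, 23.9 ± 1.91 (SD, n = 10) in WT males and 22.0 ± 1.17 (SD, n = 6) in TIMP2 KO males. Trpc6 was lower in males by a log2 fold change of -0.32 (SE 0.05, adjusted p = 0.000881 in edgeR). It ranked 2 by p among autosomal genes in that comparison. The adjusted p of Trpc6 stayed between 0.000136 and 0.00318 in edgeR when each mouse was left out in turn. Within WT mice the log2 fold change was -0.35 (adjusted p = 0.0195, edgeR) and within TIMP2 KO mice -0.30 (adjusted p = 0.477, edgeR), both fits added after the data were seen.

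C1ql2 ranged from 96.9 to 140 CPM in males, median 121, and from 113 to 178 in females, median 141. The sexes overlapped, with 8 of 14 females above every male. By group, C1ql2 averaged 150 ± 21.9 CPM (SD, n = 7) in WT females, 134 ± 12.7 (SD, n = 7) in TIMP2 KO females, 126 ± 13.6 (SD, n = 10) in WT males and 117 ± 4.28 (SD, n = 6) in TIMP2 KO males. Its log2 fold change was -0.23 (SE 0.05, adjusted p = 0.0417 in edgeR and 0.00835 in DESeq2). That call was near the threshold: the adjusted p from edgeR was 0.0524 with at least 10 counts required in every mouse, and lay between 0.0065 and 0.0928 when each mouse was left out, under 0.05 in 11 of 30 omissions. Within WT mice the log2 fold change of C1ql2 was -0.26 (adjusted p = 0.637, edgeR) and within TIMP2 KO mice -0.20 (adjusted p = 0.472, edgeR).

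Stxbp6, which varied together with Trpc6 and C1ql2, had 128 to 174 CPM in males and 132 to 208 in females. With a log2 fold change of -0.17 (SE 0.04), its adjusted p was 0.0860 in edgeR and 0.0291 in DESeq2, and 14 of 16 males lay below the female median. Glis3 had a log2 fold change of -0.14 (SE 0.06) with an unadjusted p under 0.05 and an adjusted p of 0.407 in edgeR. In all, 4 of 10 genes were lower in males at an unadjusted p under 0.05, against 5.14% of all genes, and 0 were higher, against 4.63%. The members vary together across mice, so these are not 4 separate observations. The other 6 did not pass: Prox1 had a log2 fold change of -0.09 (SE 0.05), Tdo2 -0.10 (0.07), Dock10 -0.09 (0.06), Calb1 -0.03 (0.05), Pdzd2 -0.04 (0.08) and Dsp 0.04 (0.10).

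**Figure D3:**
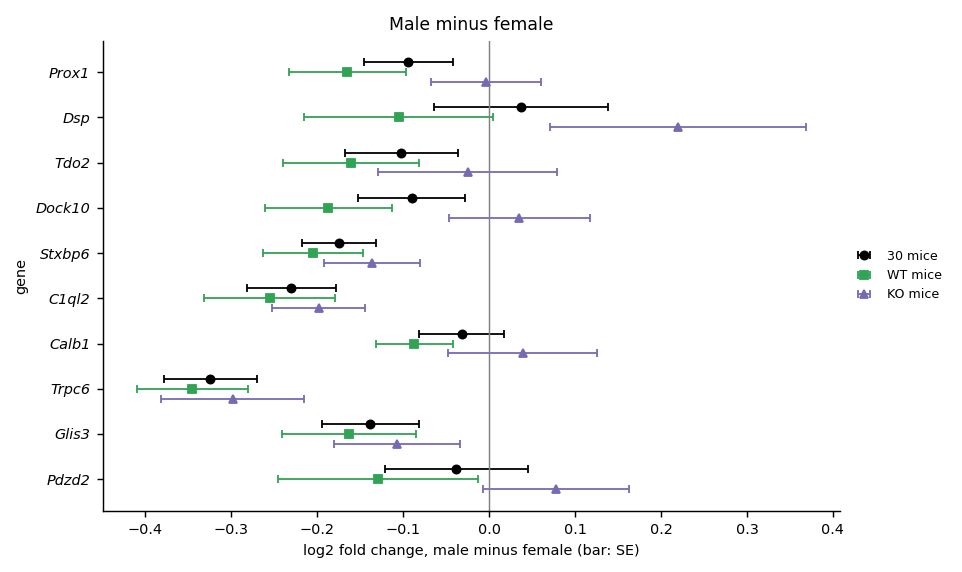
Log2 fold change of each gene, male minus female (horizontal axis), with all 30 mice and genotype as a covariate (circles), WT mice alone (squares) and TIMP2 KO mice alone (triangles), from edgeR, with bars of 1 standard error. Trpc6, C1ql2, Stxbp6 and Glis3 lie below 0 in all 3 fits, while Dsp, Dock10, Calb1 and Pdzd2 differ in sign between WT and TIMP2 KO mice.

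Among the 12 other granule cell and mossy fibre genes, Pdyn, which encodes the opioid precursor prodynorphin carried by mossy fibres, was also lower in males and was named after its value was seen. It ranged from 12.6 to 17.3 CPM in males and from 15.2 to 29.0 in females. The sexes overlapped, and the log2 fold change of Pdyn was -0.42 (SE 0.07, adjusted p = 0.000505 in edgeR). In that list 3 of 12 genes were lower in males at an unadjusted p under 0.05 (Pdyn, Lrrtm4 and Synpr), 0 of 12 higher, and the median was -0.049, against a median of -0.098 for the 10 members. The CA1 list had a median of 0.084 in the other direction, with 1 of 7 genes (Pou3f1) higher. Of all genes, 5.14% were lower and 4.63% higher in males by the unadjusted rule. Of 10 immediate early genes 7 were lower in males by the unadjusted rule and 0 after adjustment, with a median summed level of 346 CPM in males and 477 in females. Of 6 astrocyte genes 3 were lower, with summed levels of 2220 to 2550 CPM in males and 2310 to 2600 in females. Whether these have a part in the sex difference of Trpc6 and C1ql2 was not tested.

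Genes that work with the members were examined by the same thresholds. Of all genes, 2.56% were lower and 2.47% higher in TIMP2 KO by the unadjusted rule, and 5.14% lower and 4.63% higher in males. With lists this short, a count of 1 cannot be told from those shares. Of 5 other TRPC channels, 0 were lower and 1 (Trpc4) was higher in males at an unadjusted p under 0.05, and 0 differed between genotypes. Of 7 partners of C1ql2 at mossy fibre synapses, kainate receptor subunits, neurexins and an adhesion receptor among them, 1 (C1ql3) was lower in TIMP2 KO and 0 differed between the sexes. In the kynurenine pathway of Tdo2, 4 of 9 genes had enough counts to be tested, and 1, Kyat1, which converts kynurenine to kynurenic acid, was higher in TIMP2 KO with a log2 fold change of 0.14 (SE 0.04). Of 8 desmosome and plakin partners of Dsp, 0 differed between genotypes and 1 (Dsg2) was lower in males, and of 2 exchange factors related to Dock10, 0 differed between genotypes and 1 (Dock9) was higher in males. After adjustment over all genes, 0 of these partner genes passed in either comparison in edgeR.

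The members varied together across mice to differing degrees, most closely in blocks that were linked through Stxbp6. Over the 45 pairs, the median Pearson correlation of log2 CPM over 30 mice was 0.418, between -0.232 and 0.889, and 42 pairs were above 0, while the median over all pairs of genes tested was 0.0. The points share libraries, dissections and normalization. Prox1, Dock10 and Dsp were close to each other, with r of 0.89 for Prox1 and Dock10, 0.86 for Dsp and Dock10 and 0.81 for Prox1 and Dsp. Stxbp6, C1ql2 and Trpc6 made up the other tight block, with r of 0.85, 0.84 and 0.83. Between the blocks the values ran from 0.20 for Dsp and C1ql2 and 0.21 for Dsp and Trpc6 up to 0.79. The highest were those of Stxbp6, at 0.72 with Dock10 and 0.79 with Prox1. Tdo2 was at 0.73 with Stxbp6, 0.69 with C1ql2, 0.64 with Prox1 and 0.36 with Dsp. Calb1 and Glis3 varied apart from each other, at -0.23, and Pdzd2 went with Dock10 at 0.69 but with Trpc6 at -0.03.

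After removal of the mean of each sex and genotype group the median correlation was 0.322, and Dsp and Dock10 were at 0.87 and Prox1 and Dock10 at 0.86. The pairs of the other block were lower than before, at 0.77 for Stxbp6 and C1ql2, 0.75 for Stxbp6 and Trpc6 and 0.70 for C1ql2 and Trpc6. Between the blocks Stxbp6 was at 0.74 with Prox1 and 0.68 with Dock10, while Dsp and C1ql2 were at 0.17. For a single gene, the median with the other 9 was lowest for Glis3 at 0.04, Pdzd2 at 0.16 and Calb1 at 0.20. It was highest for Stxbp6 at 0.66. Over all pairs and without that removal, the median was 0.252 in TIMP2 KO mice alone and 0.496 in WT mice alone. Without mouse 10 the median was 0.421.

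**Figure D4:**
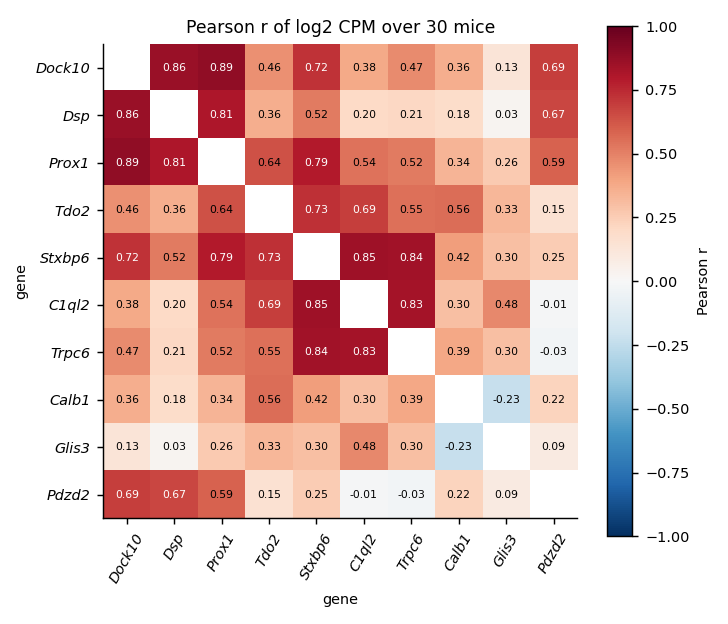
Pearson correlation of log2 CPM over 30 mice for each pair of the 10 genes, coloured from -1 (blue) to 1 (red) with the value in each cell. Dock10, Dsp and Prox1 form 1 block of values from 0.81 to 0.89, and Stxbp6, C1ql2 and Trpc6 another from 0.83 to 0.85. Between the blocks values reach 0.79, for Stxbp6 and Prox1.

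Across mice the mean of the 10 genes went with other granule cell genes and against CA1 and CA3 pyramidal genes. Its correlation with the mean of the 12 other granule cell and mossy fibre genes was 0.91 (Spearman 0.74, n = 30), and 0.85 without the 2 mice farthest from the median. With CA1 pyramidal genes it was -0.47 (Spearman -0.5), and -0.54 without the 2 farthest mice of that list. With CA3 pyramidal genes it was -0.63 (Spearman -0.51), and -0.44 without the 2 farthest. With CA2 pyramidal genes it was weaker, at -0.32, and -0.21 after group means were removed. In TIMP2 KO mice alone the CA2 value was -0.04, and in WT mice alone -0.43. With GABAergic interneuron genes it was -0.51 (Spearman -0.46), and -0.42 without the 2 farthest. With the 5 newborn granule neuron genes tested of 6 listed, Neurod1 shared with the list before, it was 0.22. Total counts per mouse had a correlation of 0.03 with the mean of the 10 genes.

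The 10 genes outside the list whose pattern was most like the mean of the members, by Pearson r after group means were removed and each member was scaled by its SD, were Synpr (0.847), Sema5a (0.837), Ccdc85a (0.826), Neurod1 (0.819), Npnt (0.803), Pitpnm2 (0.786), Ermp1 (0.777), Lin7c (0.759), Tiam1 (0.752) and Kctd4 (0.749). Of 16476 genes compared over 30 mice, 5 had r over 0.8 and 20 had r over 0.7. Synpr, which encodes the synaptic vesicle protein synaptoporin of mossy fibre terminals, and Neurod1, a transcription factor of granule cell development, were also in the list of other granule cell and mossy fibre genes. Tiam1 encodes an exchange factor for the GTPase Rac, and Sema5a a semaphorin.

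**Figure D5:**
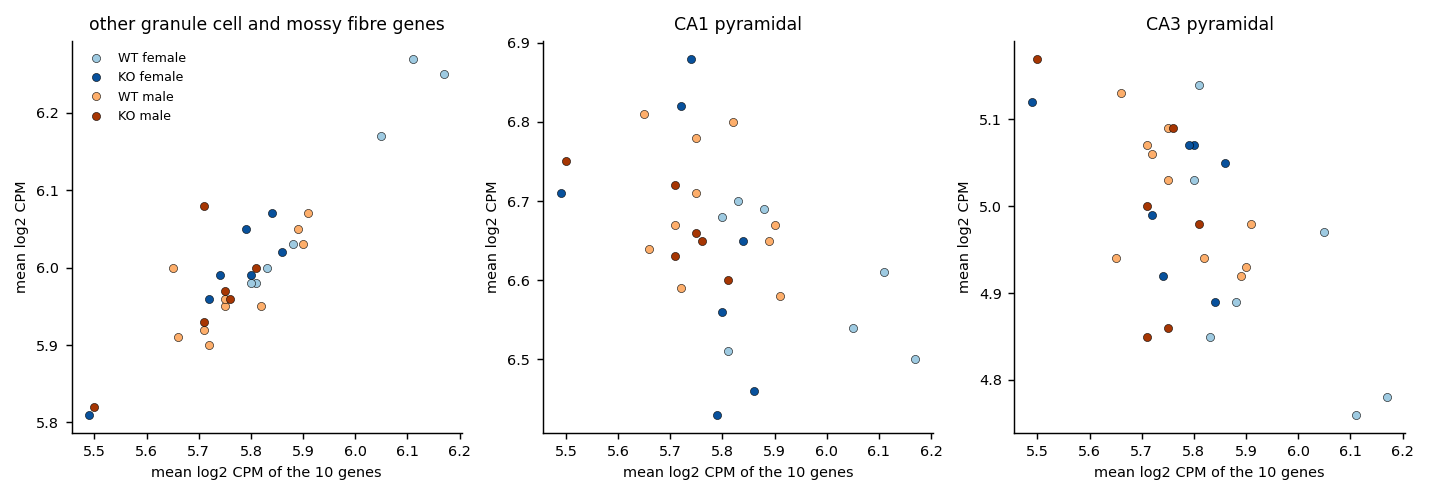
Mean log2 CPM of the 10 genes (horizontal axis) against the mean log2 CPM of 12 other granule cell and mossy fibre genes, 7 CA1 pyramidal genes and 7 CA3 pyramidal genes (vertical axes), 1 point per mouse, coloured by sex and genotype. The 3 WT females at the upper right of the first panel are mice 16, 19 and 21, of which 16 and 21 are the lowest in the CA3 panel, and TIMP2 KO mice 5 and 10 lie at the lower left of the first panel.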

How the data were processed

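Bulk hippocampal libraries of 13 TIMP2 KO and 17 WT mice were analysed. The authors deposited raw counts of reads per gene and mouse, without normalization. The submitters' processing notes name Trimmomatic 0.36, STAR 2.5.2b, featureCounts and Subread 1.5.2, with GRCm38. The strand setting and annotation release of the counting were not given in the sources used here. Of 49315 identifiers, 49056 were matched to GENCODE M21, and 0 columns were left unmatched.

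TMM normalization, the filterByExpr filter and quasi-likelihood tests used edgeR 4.0.16 in R 4.3.3, and p-values were adjusted over the 16486 genes tested. Log2 CPM used a prior count of 2. Genotypes were compared with the sexes pooled, sexes with genotype as a covariate. The test was checked on simulated data. Alternatives were DESeq2 1.42.0, limma 3.58.1 voom with sample weights, RLE factors, an unfiltered table, a minimum of 10 counts per mouse, a sex term, a sex term plus 8 surrogate variables (sva 3.50.0), each sex alone and omission of each mouse. The interaction was refitted without mouse 10 only. The fits within a genotype, the omission of mice other than mouse 10 from the comparison of the sexes, and the CA3 scaling were added after seeing the data.

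The members and all gene lists were chosen with earlier results of these data known. Named were the 10 members, listed genes with an unadjusted p under 0.05 in TIMP2 KO against WT, and the 10 genes most like the members after group means were removed; other genes named for the comparison of the sexes were chosen after their values were seen. Promoter windows were taken from RefSeq (GRCm38.p6). Correlations are descriptions without p. p-values measure the spread between mice.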

Additional observations from a re-analysis of the deposited data

Results flagged for a closer look

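In groups of 6 to 10 mice, a mouse was marked when its gap to the nearest other mouse was large against the range of its group. Of 48 sets of values examined (the 10 genes, their mean and Pdyn in 4 groups), 7 were marked, where chance marks about 1 in 20, or 2.4. They came from 3 mice, and the values of a mouse are not independent.

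TIMP2 KO male mouse 10 was low for Dsp, with a log2 CPM of 4.60 where the remaining males of that genotype spanned 5.52 to 5.97, for Dock10 (5.99 against 6.46 to 6.62) and for the mean of the 10 genes (5.50 against 5.71 to 5.81). TIMP2 KO female mouse 5 was low for Dsp, with 4.86 where the remaining females of that genotype spanned 5.31 to 5.48, for Tdo2 (2.75 against 3.17 to 3.41) and for the mean of the 10 genes (5.49 against 5.72 to 5.86). TIMP2 KO female mouse 30 was high for Pdzd2, at 5.81 against 5.34 to 5.53. The mean of the 12 other granule cell and mossy fibre genes was also lowest in these mice, 5.82 in mouse 10 and 5.81 in mouse 5. Without mouse 10 the log2 fold change of Dsp was -0.158, and without mouse 5 it was -0.173, against -0.212 with all mice.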

How the results depend on the processing

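In TIMP2 KO against WT, 0 of 10 genes passed the adjusted threshold under any of 9 alternatives or 30 omissions of a mouse. The count at an unadjusted p under 0.05, 5 in the pooled fit, was 2 with sex and surrogate variables, 3 in males alone, 7 in females alone and 7 with sex as a covariate, and 3 to 6 over the omissions. Over all 16486 genes, 422 were lower by that rule in the pooled fit. The number was 544 with sex and surrogate variables and 481 with sex as a covariate. It was 272 of 16607 in males alone, 441 of 16397 in females alone, and 333 to 492 over the omissions. The median log2 fold change was -0.045 with surrogate variables, and -0.145 to -0.092 over the omissions. In males alone the sign was reversed for Glis3 (0.004) and Pdzd2 (0.033), and over the omissions Glis3 lay between -0.039 and 0.007. In the pooled fit of 16486 genes, 422 lower and 407 higher had an unadjusted p under 0.05. Both directions together were 1971 of 33550 genes without a filter and 540 of 16607 in males alone. At the adjusted threshold 9 genes passed, against 2 in females alone and 3 in males alone.

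Between the sexes, the count of members at an adjusted p under 0.05, 2 in the main comparison, was 1 with at least 10 counts in every mouse, 1 in WT mice alone, 0 in TIMP2 KO mice alone, 3 with DESeq2 and 1 to 3 over the omissions. Trpc6 kept its call in all 30 omissions. C1ql2 kept it without mouse 2, 5, 7, 12, 14, 15, 22, 23, 28, 30 or 31 and lost it in the other 19. Stxbp6 gained a call without mouse 5, 28 or 31. The median log2 fold change was -0.164 in WT mice and -0.014 in TIMP2 KO mice, and -0.123 to -0.073 over the omissions. The sign was reversed for Dsp in WT mice (-0.105) and, in TIMP2 KO mice, for Dock10 (0.035), Calb1 (0.039) and Pdzd2 (0.078). Over the omissions Dsp lay between -0.014 and 0.086 and Pdzd2 between -0.061 and 0.002. Over all genes 36 passed, against 85 with DESeq2, 16 in WT mice alone and 13 in TIMP2 KO mice alone. Without a filter 2703 of 33550 genes had an unadjusted p under 0.05, against 848 lower and 763 higher in males of the 16486 genes with it.

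For the interaction, the count at an unadjusted p under 0.05, 0 with all mice, was 1 without a filter (Dock10) and 2 without mouse 10. Mouse 10 was the only mouse left out of this fit. Over all genes, 1434 of 33550 had such a p without a filter and 595 of 16531 without mouse 10, instead of 423 of 16486. The causes of these changes were not tested, beyond the fewer mice in the fits of 1 sex or genotype. Every member had at least 159 counts per mouse.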

Other observations

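Other cell types were measured by the same lists. Of all genes, 2.56% were lower and 2.47% higher in TIMP2 KO at an unadjusted p under 0.05. In TIMP2 KO against WT, 0 genes had an unadjusted p under 0.05 in the mossy cell (6 genes), CA2 pyramidal (7), GABAergic interneuron (8), oligodendrocyte (7), microglia (6), thalamus and habenula (5), striatum (7) and meningeal fibroblast (6) lists, and 0 of the 5 newborn granule neuron genes tested did. Of 6 endothelial genes, 1 (Slco1a4, a transporter of the blood-brain barrier) was lower, of 7 neocortex genes 2 (Rprm and Scnn1a) were lower, and of 6 astrocyte genes 1 (Gfap) was higher. None of these passed after adjustment over all genes in edgeR.

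Between the sexes, 2 of 7 CA2 pyramidal genes (Amigo2 and Cacng5) were higher in males at an unadjusted p under 0.05, and 0 of 7 CA3 genes differed. Of all genes, 5.14% were lower and 4.63% higher in males by that rule. In lists this short a count of 1 cannot be told from those shares. Of 7 neocortex genes 3 (Rorb, Rprm and Scnn1a) were lower in males, and Scnn1a, which marks neurons of cortical layers, was lower by a log2 fold change of -0.26 (SE 0.06, adjusted p = 0.0269 in edgeR). Lower counts by the same unadjusted rule were 1 of 6 in mossy cell, 1 of 8 in interneuron, 1 of 6 in microglia, 1 of 6 in endothelial, 2 of 7 in striatum and 2 of 6 in meningeal fibroblast genes, and higher counts were 1 each in mossy cell, interneuron, endothelial and striatum genes. In the oligodendrocyte, thalamus and habenula, newborn granule neuron and choroid plexus lists 0 genes tested differed between the sexes.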
